A study of Mus musculus with 6 samples.

Results

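The genes of extracellular Wnt signalling were followed across the cells of the aged mouse lung. They were taken by name from the 31054 features of the count matrices: all Wnt, Fzd, Sfrp, Dkk and Rspo genes with a number, and Lrp5, Lrp6, Axin2, Lgr4, Lgr5, Lgr6 and Wif1. The rule found 48 members, of which 19 were Wnt ligands, 12 were Fzd or Lrp receptors, 7 were R-spondins or their Lgr receptors, 9 were secreted antagonists (4 Sfrp, 4 Dkk and Wif1) and 1 was the feedback target Axin2. No measured value entered the rule.

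Single-cell RNA sequencing was performed on lungs of male C57BL/6 mice aged 21 months, with 3 libraries labelled p16-DTR and 3 control libraries, each from 1 mouse. The mice labelled p16-DTR carried p16-CreERT2 and R26-LSL-DTR, in which tamoxifen lets a Cre recombinase expressed from p16 switch on the diphtheria toxin receptor, and control mice carried p16-CreERT2 alone. All mice were given 5 days of tamoxifen, then after 2 weeks 5 days of diphtheria toxin, and recovered for 2 weeks, so the Cre allele and both agents were common to the groups. Each library mixed 20000 sorted CD45- cells with 9000 CD45+ cells, and the sort therefore set the proportion of immune to other cells.

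Wnt proteins are secreted lipid-modified ligands that bind Frizzled (Fzd) receptors. With the co-receptors Lrp5 and Lrp6 they protect beta-catenin from degradation, and beta-catenin with TCF/LEF factors then raises target genes, among them Axin2, a negative feedback component used widely as a readout. R-spondins bind Lgr4, Lgr5 or Lgr6 and keep Frizzled receptors at the cell surface, Sfrp proteins and Wif1 bind Wnt ligands, and Dkk1, Dkk2 and Dkk4 bind Lrp5 and Lrp6. In the adult lung, Wnt ligands from fibroblasts are known to support alveolar type 2 cells.

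Libraries held 13482 to 17332 barcodes and 254200305 to 344421685 unique molecular identifiers (UMIs), and 85386 cells were retained after filtering. Any pair of libraries shared 55 to 90 barcodes. Cdkn2a, which encodes p16, lay against the direction that loss of p16-expressing cells would give, but was not called. Libraries labelled p16-DTR had 6.76, 8.54 and 7.20 CPM (UMIs of a gene per 1000000 UMIs) and control libraries 1.19, 2.60 and 2.83 (log2 fold change 1.82 ± 0.32 SE, edgeR adjusted p = 0.137), without overlap. Of all genes tested over all retained cells, 8.39% lay higher without overlap. A tdTomato feature was read 79, 64 and 83 times where the label is p16-DTR and 0 times in each control library, a count that allows up to 3. Even this feature was not called over all retained cells (edgeR adjusted p = 0.107). Every direction given here is therefore that of the libraries as labelled.

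Cells were clustered without the 48 genes and clusters were named from marker genes, so a class name such as pericyte means cells that resemble pericytes by these markers. Of 89 clusters, 57 were named, and 9.28% to 11.6% of the cells of a library stayed unnamed. Levels are described for the 28 classes with at least 20 cells in every library, and the groups were tested in the 21 classes with at least 50. Alveolar fibroblasts made up 19.9%, 17.1% and 13.9% against 29.7%, 18.6% and 20.4% of cells (libraries labelled p16-DTR against control libraries, replicates 1 to 3 in turn, as in every such pair of values here), and the groups overlapped. Pericytes made up 0.56%, 0.61% and 0.54% against 0.88%, 1.35% and 1.11%, without overlap. General capillary endothelial cells took a higher share in every library labelled p16-DTR, and smooth muscle, ciliated and mesothelial cells a lower one.

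Levels are CPM, relative to all UMIs of the class in a library, given as the mean with the range over all 6 libraries in brackets. Values were not divided by gene length, and whether they depend on it was not tested. No test was made between classes. Of the 48 genes, 36 reached a mean of 5 CPM in some class, and for 16 of these the range in the highest class lay wholly above that of the next. The map of levels shows ligands mainly in stromal, mesothelial, alveolar type 1 and ciliated cells, and Fzd4 in endothelial cells.

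**Figure D1:**
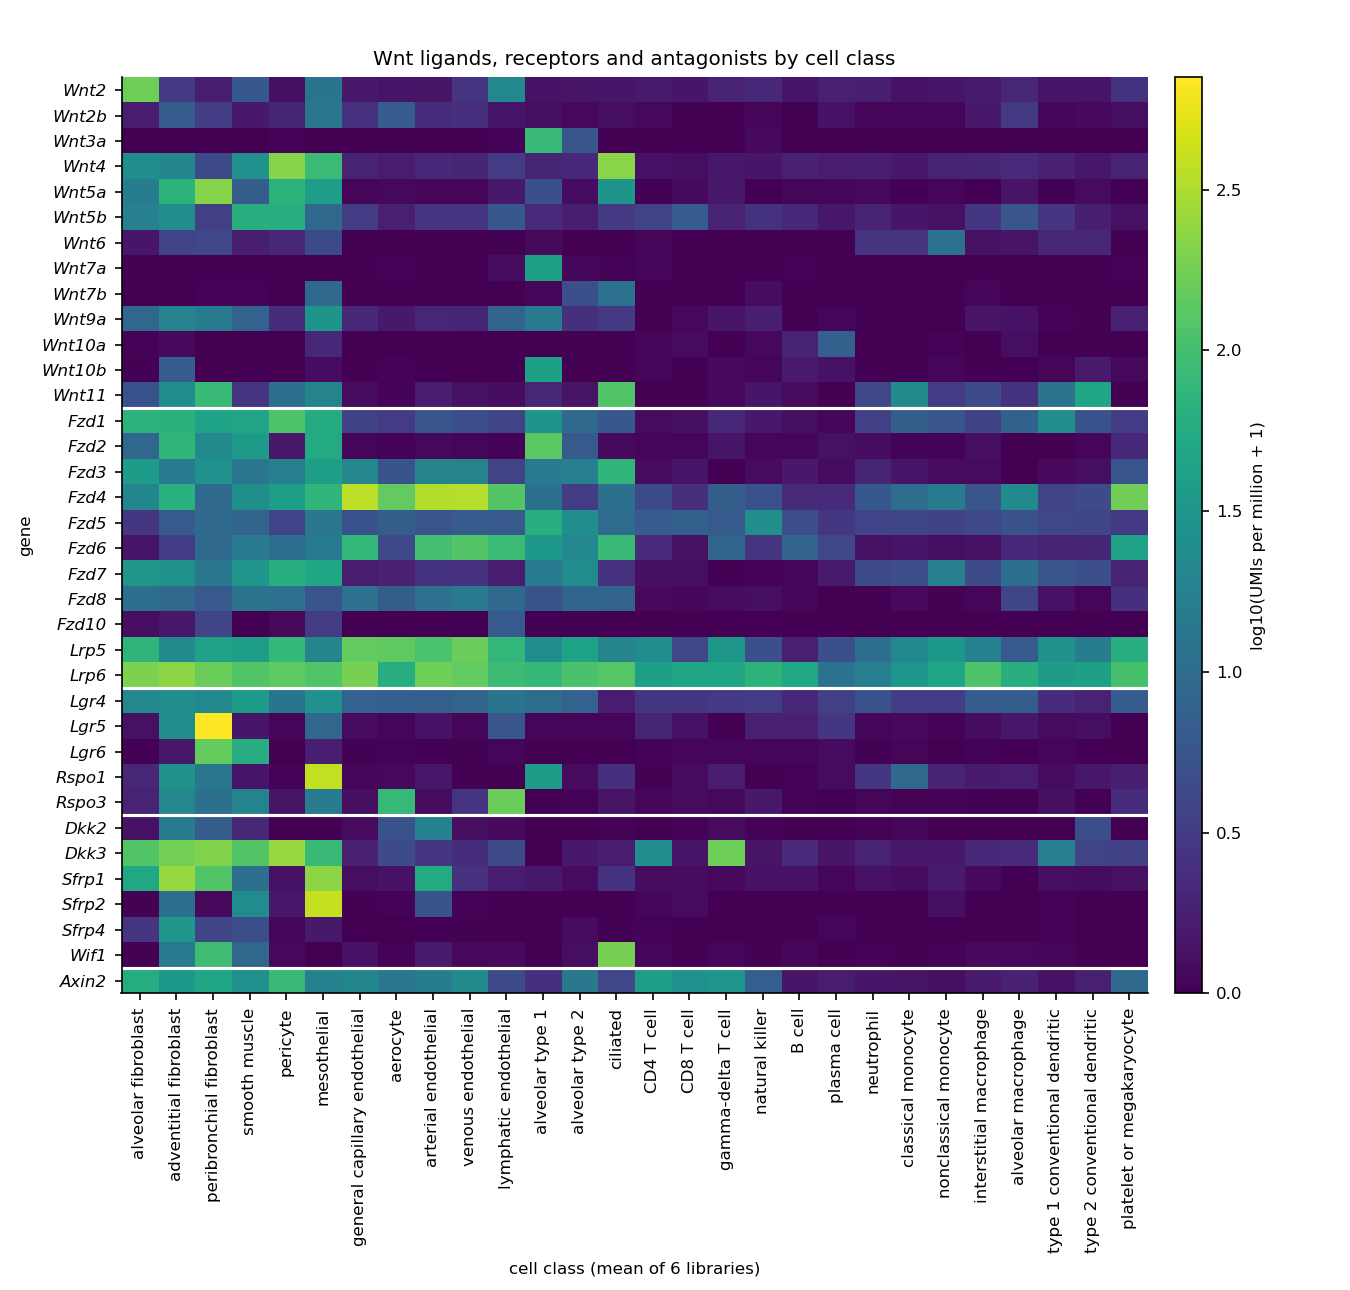
Heat map of the mean level over 6 libraries, as log10(CPM + 1), of the 36 genes that reached 5 CPM in some class (rows, grouped by role) in 28 cell classes (columns). The highest value is Lgr5 in peribronchial fibroblasts, at a mean of 706 CPM.

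Among the ligands, Wnt2, which signals through beta-catenin, was highest in alveolar fibroblasts at 163 (131 to 196), with lymphatic endothelial cells next at 20.3 (16.2 to 24.1). Wnt5a, a mainly non-canonical ligand, was highest in peribronchial fibroblasts at 211 (173 to 238), ahead of pericytes at 68.8 (52.2 to 85.3). Ciliated cells led Wnt11 at 118 (107 to 134), followed by peribronchial fibroblasts at 83.8 (51.8 to 106). For these 3 genes the range of the leading class lay above that of the next. Wnt4 had a pair of leading classes with overlapping ranges, ciliated cells at 222 (199 to 248) and pericytes at 216 (187 to 272). Wnt5b likewise had smooth muscle at 60.7 (44.8 to 79.7) and pericytes at 59.0 (29.9 to 83.9).

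Alveolar type 1 cells, the thin cells of gas exchange, stood apart for 3 ligands. Wnt3a was at 82.6 (55.6 to 103) there and at 4.73 (2.90 to 6.99) in alveolar type 2 cells. Wnt7a was at 41.1 (29.5 to 60.6) against 0.243 (0 to 1.46) in lymphatic endothelial cells, and Wnt10b at 41.1 (28.1 to 57.5) against 5.76 (5.05 to 6.93) in adventitial fibroblasts. The class joined a cluster of 434 cells, whose median UMI count was 0.059 of that of their library, with one of 177 cells at 1.73. The low-count cluster held 18 UMIs of Wnt3a, 19 of Wnt7a and 20 of Wnt10b, where the whole class held 533, 258 and 279.

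Mesothelial cells, which line the lung surface, led Wnt9a at 28.6 (16.4 to 36.0) over adventitial fibroblasts at 17.3 (15.97 to 19.6), and Wnt2b at 12.2 (6.56 to 16.97) over adventitial fibroblasts at 5.80 (4.55 to 6.93). Wnt7b was at 10.7 (9.03 to 12.1) in ciliated and 8.52 (0 to 16.97) in mesothelial cells. Wnt6 led in nonclassical monocytes at 10.6 (4.14 to 26.6), with mesothelial cells at 3.35 (0 to 7.38), and Wnt10a in plasma cells at 6.56 (1.23 to 11.2), with mesothelial cells at 1.09 (0 to 2.51). In these 5 genes the leading and the next class overlapped. The other 6 ligands, Wnt1, Wnt3, Wnt8a, Wnt8b, Wnt9b and Wnt16, stayed under 5 CPM in every class, with 13 (Wnt8a) to 204 (Wnt16) UMIs in all 6 libraries together.

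Receptors were spread more broadly. Lrp6 passed 5 CPM in all 28 classes and was highest in adventitial fibroblasts at 227 (208 to 241), with alveolar fibroblasts at 193 (167 to 218). Lrp5 did so in 24 classes, led by venous endothelial cells at 158 (118 to 190.2) and general capillary endothelial cells at 146 (117 to 166). Fzd4, which also serves as the receptor for Norrin in blood vessels, was highest in general capillary cells at 363 (334 to 387), then in venous cells at 338 (297 to 377) and arterial cells at 331 (266 to 375). Fzd6 was led by venous cells at 120.5 (109 to 138) and arterial cells at 97.4 (85.9 to 112), and Fzd8 by venous cells at 13.6 (11.3 to 18.1) and smooth muscle at 11.6 (9.26 to 15.3). For these 5 receptors neighbouring ranges overlapped.

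Pericytes led Fzd1 at 111 (73.4 to 137), with alveolar fibroblasts at 68.6 (59.7 to 75.1), and Fzd7 at 60.2 (44.5 to 69.1), with mesothelial cells at 47.0 (35.0 to 75.1). Both pairs of ranges overlapped. Epithelial classes led 3 receptors without overlap. Fzd2 was at 129.5 (116 to 155) in alveolar type 1 cells and 74.2 (59.2 to 81.7) in adventitial fibroblasts, Fzd5 at 60.4 (44.5 to 82.9) in alveolar type 1 cells and 24.7 (19.8 to 31.6) in natural killer cells, and Fzd3 at 72.2 (64.6 to 81.0) in ciliated and 37.5 (29.5 to 42.5) in mesothelial cells. Fzd10 reached 5.46 (3.02 to 7.34) in lymphatic endothelial cells and 2.90 (0.495 to 4.64) in peribronchial fibroblasts, which overlapped. Fzd9 was also highest in lymphatic endothelial cells, at 4.06 (0.755 to 9.35).

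Of the R-spondin receptors, Lgr5 and Lgr6 were highest in stromal classes and Lgr4 was spread more widely. Lgr5, known as a stem cell marker in the intestine, was at 706 (482 to 1066) in peribronchial fibroblasts, the cells around the airways, and at 25.4 (14.3 to 39.7) in adventitial fibroblasts, the next class. Lgr6 was at 147 (115 to 190.3) in peribronchial fibroblasts and 59.2 (28.2 to 113) in smooth muscle, and mesothelial cells, next in order, had 0.733 (0 to 4.40). Lgr4 passed 5 CPM in 16 classes and was led by smooth muscle at 34.7 (27.4 to 39.2), which overlapped mesothelial cells at 26.7 (16.1 to 46.6).

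R-spondins were highest in other classes. Rspo1 was at 389 (283 to 499.5) in mesothelial and 36.5 (21.9 to 46.9) in alveolar type 1 cells. Rspo3 was at 159 (128 to 219) in lymphatic endothelial cells and 81.0 (59.1 to 107) in aerocytes, the capillary cells of gas exchange. Neither pair overlapped. Rspo2 and Rspo4 stayed under 5 CPM in every class.

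Among the antagonists, Dkk3, a Dkk family member that is not a typical Lrp inhibitor, was highest in pericytes at 258 (220.1 to 292), with peribronchial fibroblasts at 203 (178 to 224). Sfrp1 was at 258 (225 to 327) in adventitial fibroblasts and 224 (129 to 299.8) in mesothelial cells, and Dkk2 at 17.1 (5.32 to 23.5) in arterial endothelial cells and 13.7 (5.73 to 19.6) in adventitial fibroblasts. These 3 pairs overlapped. Sfrp2 was at 401 (193 to 629.6) in mesothelial cells against 23.6 (0 to 33.8) in smooth muscle, Sfrp4 at 29.3 (22.5 to 35.5) in adventitial fibroblasts against 3.80 (2.55 to 4.82) in smooth muscle, and Wif1 at 182 (158 to 218) in ciliated cells against 94.7 (49.0 to 124) in peribronchial fibroblasts, none of which overlapped. Dkk1, Dkk4 and Sfrp5 stayed under 5 CPM in every class.

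Axin2 was highest in pericytes at 82.3 (52.4 to 105), then in alveolar fibroblasts at 57.7 (48.1 to 71.4) and peribronchial fibroblasts at 46.4 (36.3 to 62.2), each overlapping its neighbour. It passed 5 CPM in 16 of the 28 classes. CD4 T cells had a mean of 37.7.

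Summed over all retained cells, most members lay lower in the libraries labelled p16-DTR, but none passed the adjusted threshold. Of 44 members that passed the filter on low counts (all but Wnt1, Wnt8a, Dkk4 and Sfrp5), 37 had a log2 fold change below 0, with a median of -0.39, whereas 52% of the 21410 genes tested were below 0, with a median of -0.01. The number called by edgeR at an adjusted p of 0.05 was 0 among members, where the percent called over all genes was 0, tdTomato included. The absence of calls is therefore not particular to the members. At an unadjusted p under 0.05 there were 19 members, against 22.6% of all genes. DESeq2 called 8 of the 40 members to which it gave an adjusted p, and 12.6% of all such genes. Over all 48 members, 20 lay lower in every library labelled p16-DTR than in any control library and 2 lay higher, where 22.1% and 8.39% of all genes tested did so. Without control replicate 1, 34 of the 44 were below 0 and the median was -0.29, and without p16-DTR replicate 3 the numbers were 37 and -0.29. Members at an unadjusted p under 0.05 numbered 9 without p16-DTR replicate 3, against 12.4% of all genes, and 14 to 22 without each of the other libraries, against 17.7% to 21.7%.

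**Figure D2:**
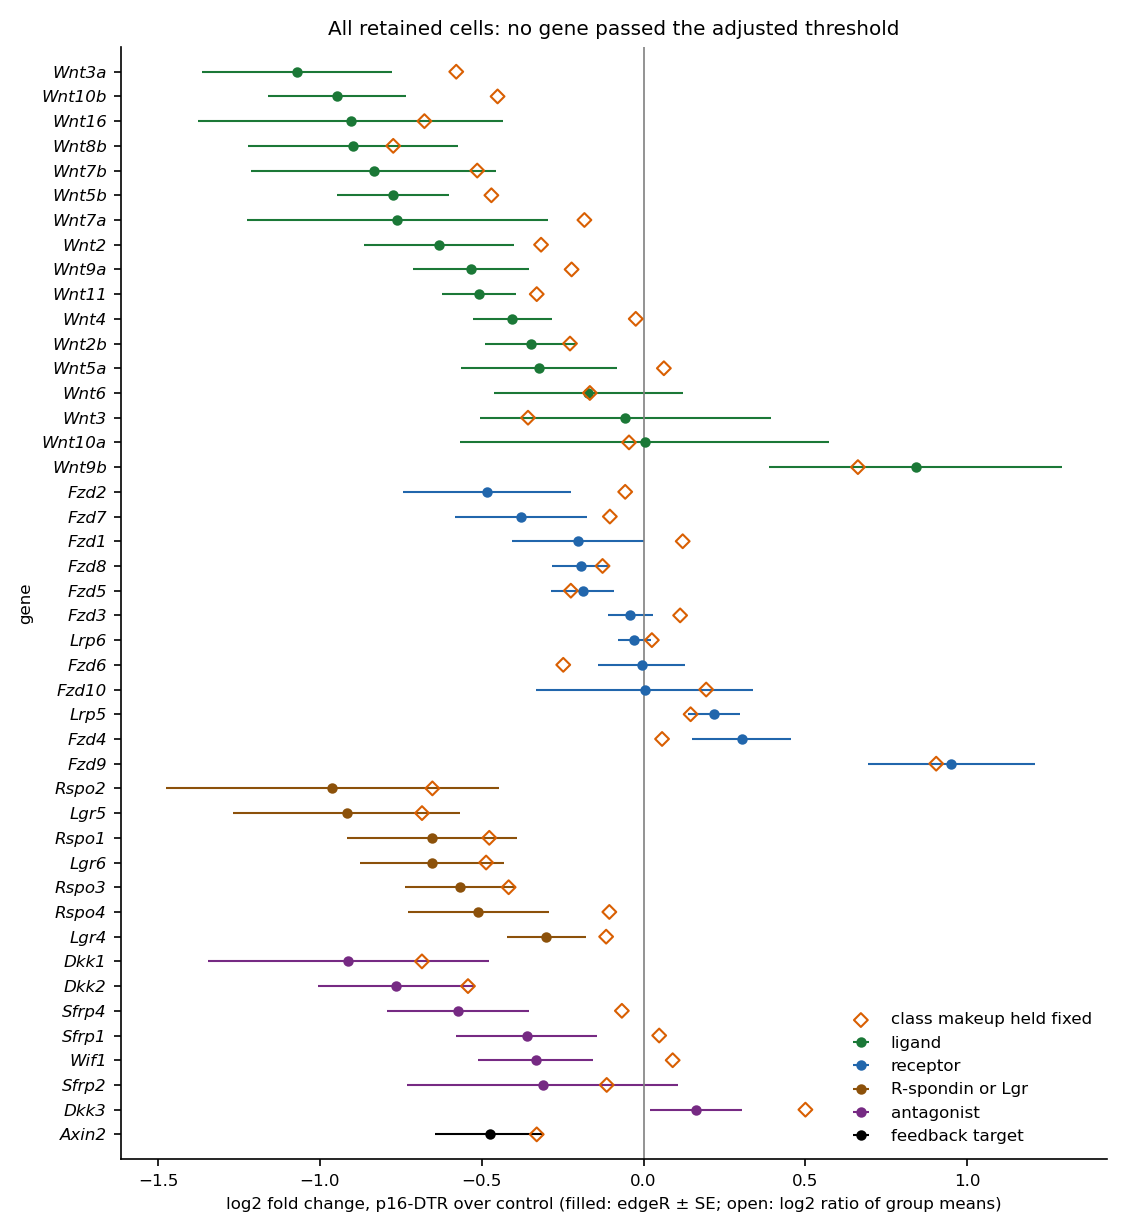
Log2 fold change (p16-DTR over control) of the 44 tested genes over all retained cells, by role. Filled points are edgeR estimates with a standard error derived from the F statistic of the test (n = 3 libraries a group). Open diamonds are log2 ratios of group means with the shares of the 21 tested classes, and of all other cells together, held equal in all libraries. Of the filled points, 37 lie below 0.

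Of the 20, 9 were ligands. Wnt2 was at 38.9, 35.7 and 27.2 against 72.5, 47.0 and 43.3 CPM (-0.63 ± 0.23, adjusted p = 0.192). Wnt5b was at 5.82, 6.46 and 4.81 against 12.3, 8.54 and 9.40 (-0.77 ± 0.17, adjusted p = 0.137). In both genes control replicate 1 was highest. Wnt4 was at 13.9, 12.9 and 10.4 against 17.7, 17.5 and 15.8, and Wnt11 at 7.05, 7.57 and 5.79 against 10.3, 10.4 and 9.33. Wnt9a was at 3.34, 3.39 and 2.82 against 5.98, 4.08 and 4.22, and Wnt2b at 1.01, 1.26 and 0.968 against 1.47, 1.38 and 1.41. These too were lower in every library labelled p16-DTR. The same held for 3 ligands of low level: Wnt10b was at 0.464, 0.464 and 0.311 against 0.900, 0.706 and 0.866, Wnt3a at 0.309, 0.324 and 0.244 against 0.397, 0.811 and 0.704, and Wnt8b, with 79 UMIs in all, at 0.0238, 0.0381 and 0.0375 against 0.0821, 0.0480 and 0.0611. Wnt5a overlapped, at 11.8, 11.6 and 7.73 against 17.6, 11.2 and 11.4.

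Receptors were divided. Lrp5 was at 72.4, 71.3 and 70.9 against 55.7, 69.2 and 66.1 (0.22 ± 0.08, adjusted p = 0.192), and Fzd9, with 182 UMIs in all, at 0.115, 0.145 and 0.188 against 0.0920, 0.0741 and 0.0718. These were the 2 members that lay higher without overlap. Fzd5 was at 4.06, 4.57 and 4.37 against 4.61, 5.08 and 5.65 and Fzd8 at 6.58, 5.97 and 5.92 against 7.28, 7.74 and 6.85, both lower without overlap. Lrp6 and Fzd4, the most abundant receptors, overlapped, with Lrp6 at 121, 135 and 125 against 136, 135 and 131 and Fzd4 at 113, 109.5 and 122 against 73.9, 115 and 100.2. Fzd1 overlapped too, at 27.3, 23.7 and 19.7 against 35.8, 22.3 and 26.0.

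In the R-spondin and Lgr group, 6 of 7 genes lay lower without overlap, the exception being Rspo2, where 22.1% of all genes tested did so. With the shares of the 21 tested classes held equal, Lgr4 and Rspo4 overlapped and 4 of 7 stayed apart. Mesothelial cells, which lead Rspo1, were not among these classes, so their share was not held. Lgr5 was at 9.60, 5.76 and 4.58 against 18.2, 10.4 and 10.4 (-0.92 ± 0.35, adjusted p = 0.201), Lgr6 at 2.22, 1.92 and 1.24 against 2.83, 2.73 and 3.21 and Lgr4 at 9.07, 10.0 and 8.34 against 13.4, 10.3 and 11.2. Rspo1 was at 4.29, 4.59 and 3.00 against 8.70, 4.85 and 5.76, Rspo3 at 5.24, 6.76 and 4.58 against 8.46, 9.65 and 7.25, and Rspo4 at 0.409, 0.590 and 0.488 against 0.900, 0.628 and 0.657. Control replicate 1 held the highest value of Lgr5, Lgr4, Rspo1 and Rspo4.

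Of the antagonists, Dkk2 was at 1.64, 1.496 and 1.00 against 3.01, 2.08 and 2.18 and Sfrp4 at 1.86, 1.93 and 1.68 against 3.70, 2.10 and 2.60, both lower without overlap. Dkk3 overlapped at 53.3, 53.4 and 41.8 against 53.4, 42.4 and 41.3, as did Sfrp1 at 27.1, 32.7 and 25.1 against 50.3, 29.4 and 32.9 and Wif1 at 5.12, 5.40 and 3.72 against 6.16, 7.13 and 5.27. Axin2 was at 23.1, 22.6 and 19.9 against 39.5, 25.5 and 29.2 (-0.47 ± 0.17, adjusted p = 0.187), without overlap.

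A sum over all cells mixes the level within each class with the share of cells in that class. The values were therefore computed again with the share of each of the 21 tested classes, and of a remainder of 12.7% to 16.2% of cells, held at its mean over the 6 libraries. This measure has no test, and it does not hold the shares of classes inside the remainder, such as mesothelial cells. The ratio of group means was then below 1 for 35 of 48 members, against 42 as observed, and its median was 86.9% against 71.3%. Over all genes tested, the ratio was below 1 for 59.7% at fixed makeup and 61.4% as observed, with medians of 97.7% and 95.9%. Members lower without overlap numbered 17, of which 16 were among the 20 observed, and those higher rose in number from 2 to 4. Of all genes tested, 19.6% were lower and 8.47% higher without overlap at fixed makeup. Wnt4 moved from 73.0% to 98.4% of the control mean, Sfrp4 from 65.1% to 95.5%, Lgr4 from 78.5% to 92.3% and Rspo4 from 68.0% to 92.9%, and these 4 overlapped at fixed makeup. Sfrp1, which overlapped in both, moved from 75.4% to 103%. Fzd6 moved from 96.1% to 84.2% and became lower without overlap. Wnt2 moved from 62.5% to 80.3%, Wnt5b from 56.6% to 72.2%, Lgr5 from 51.2% to 62.2% and Axin2 from 69.6% to 79.6%, and these 4 stayed apart. Dkk3 moved from 108% to 141% and then lay higher without overlap, at 55.1, 61.3 and 57.5 against 38.4, 44.9 and 39.7 CPM. Fzd1 moved from 84.1% to 109% and also lay higher, but by a near tie, at 27.9, 27.0 and 26.311 against 26.304, 23.2 and 25.1.

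Within classes, 315 tests of 40 members in 21 classes gave 7 calls, 2 higher and 5 lower, all in alveolar fibroblasts, peribronchial fibroblasts and venous endothelial cells. This is 2.22% of the tests, against 0.71% of those of all genes in the same classes. An unadjusted p under 0.05 was reached in 77 of the 315 tests, and in 13.5% of the tests of all genes. Adjustment over all classes together gave 3 calls, where 0.25% of the tests of all genes were called.

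**Figure D3:**
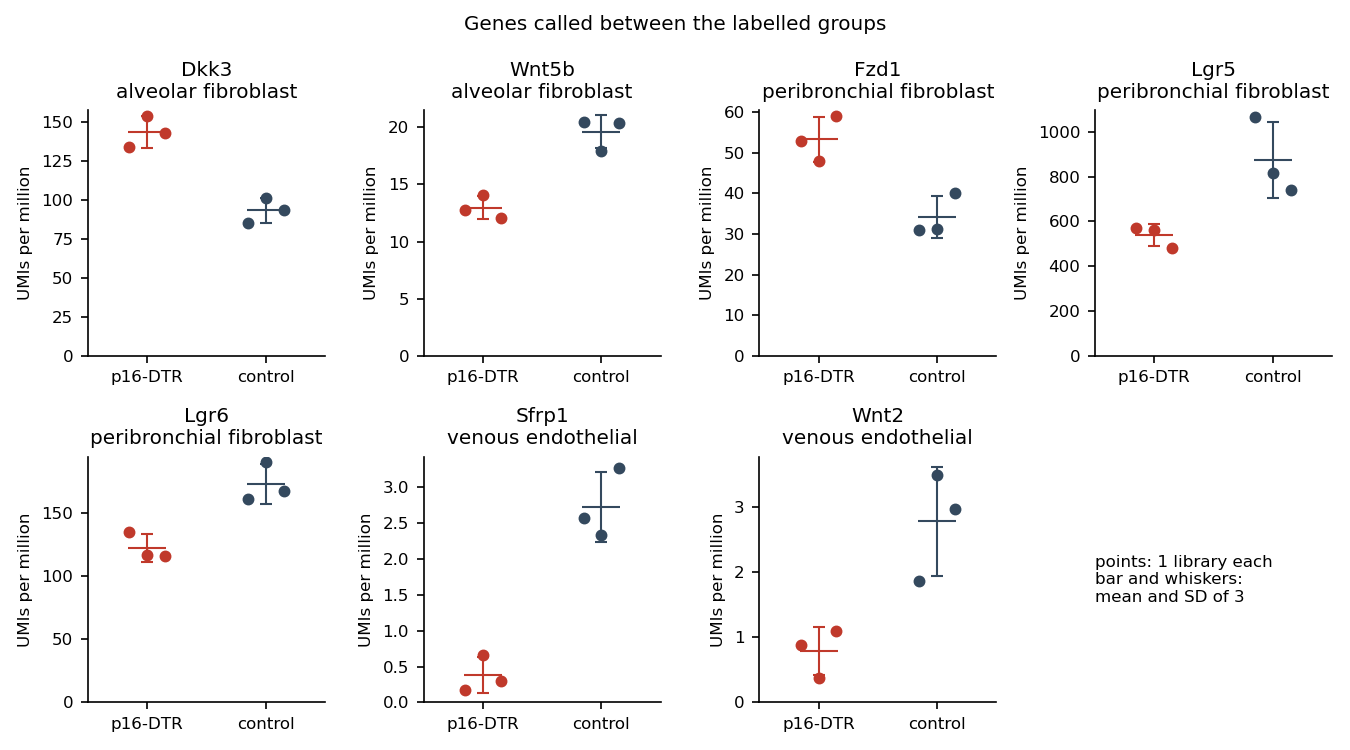
Level in CPM of the 7 gene and class pairs that passed the adjusted threshold, 1 point a library, with the mean and SD of 3 libraries a group; each vertical axis starts at 0. In every panel the 3 points of one group lie on one side of the other 3.

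In alveolar fibroblasts, stromal cells of the alveolar wall, Dkk3 rose and Wnt5b fell in the libraries labelled p16-DTR, 2 calls among 29 members tested, where the percent called over all genes was 1.24. Dkk3 (ENSMUSG00000030772, GRCm38 chromosome 7, 112116017 to 112159057, minus strand) was at 134, 154 and 143 against 85.1, 101.3 and 93.5 CPM, or 144 ± 10.1 against 93.3 ± 8.10 (SD, n = 3). Its log2 fold change was 0.64 ± 0.08 (SE, edgeR adjusted p = 0.0400). Wnt5b (ENSMUSG00000030170, GRCm38 chromosome 6, 119432531 to 119544347, minus strand) was at 12.8, 14.03 and 12.0 against 20.4, 17.9 and 20.4, or 12.9 ± 1.01 against 19.6 ± 1.44 (-0.58 ± 0.08, adjusted p = 0.0415). Neither gene overlapped between the groups. Leaving out 1 library ended both calls in 4 of 6 cases: the adjusted p of Dkk3 was 0.116 without control replicate 1, 0.119 without control replicate 3, 0.0620 without p16-DTR replicate 2, and it was 0.140 when p16-DTR replicate 3 was left out. That of Wnt5b was 0.120, 0.119, 0.0620 and 0.146 in the same fits.

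Other members did not pass in alveolar fibroblasts. Wnt2, the most abundant ligand there, was at 148, 152 and 131 against 196, 189 and 165 (-0.33 ± 0.09, adjusted p = 0.0915), and Axin2 at 53.7, 48.1 and 51.1 against 71.4, 57.7 and 64.0 (-0.32 ± 0.08, adjusted p = 0.0850). Wnt5a was at 15.2, 19.7 and 16.9 against 13.04, 13.9 and 13.3 (0.38 ± 0.09, adjusted p = 0.0773). None of these 3 overlapped. In all, 4 members were higher and 7 lower without overlap, where 11.2% and 15.7% of all genes of the class were.

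Alveolar fibroblasts held clusters of 7656 (cluster 1, led by Tnc), 6715 (cluster 2, led by Unc80) and 2760 cells (cluster 8), and 47 further cells. Cluster 8 took its name from 3 alveolar fibroblast markers, none of them among its leading genes, where clusters 1 and 2 had 7 each. Its name is therefore weakly founded. Cluster 2 made up 47.4%, 23.4% and 26.6% of the class against 46.6%, 40.1% and 40.01%, which overlapped. Dkk3 was at 128, 141 and 133 against 87.5, 94.5 and 90.1 in cluster 1, at 109, 120.0 and 114 against 60.0, 73.4 and 68.9 in cluster 2 and at 233, 245 and 236 against 145, 183 and 155 in cluster 8. It was thus higher without overlap in each of the 3 clusters. Wnt5b was lower without overlap in each, at 13.1, 14.2 and 11.6 against 21.9, 18.5 and 20.4 in cluster 1, 13.8, 19.7 and 14.9 against 22.5, 19.9 and 25.7 in cluster 2 and 8.32, 6.09 and 8.87 against 12.5, 12.1 and 8.95 in cluster 8. The nearest values were close in cluster 2 (19.7 and 19.9) and in cluster 8 (8.87 and 8.95). The clusters are parts of the cells that gave both calls, so they are not independent support for them.

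**Figure D4:**
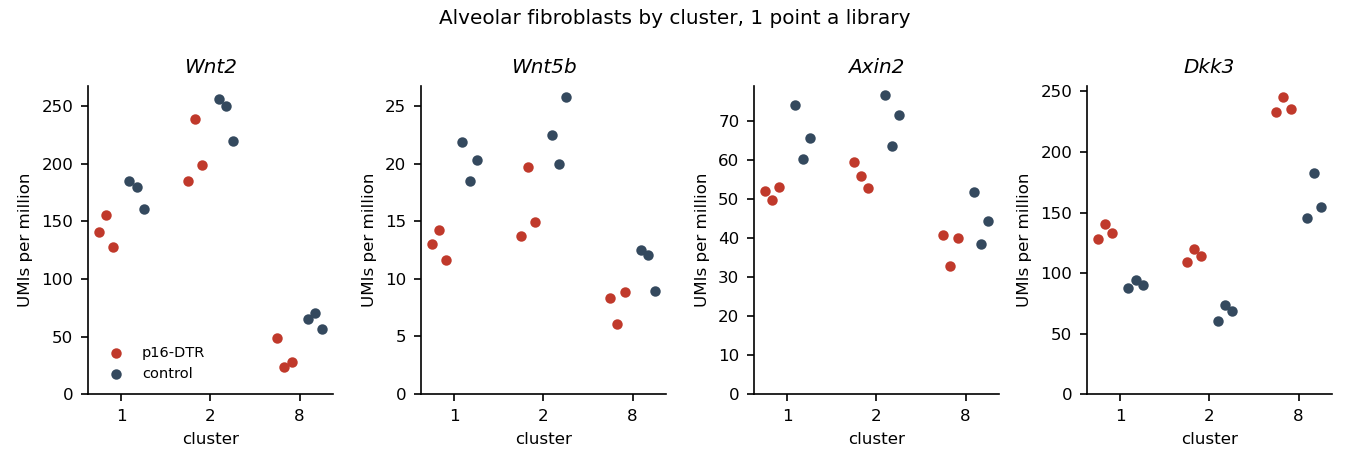
Level of Wnt2, Wnt5b, Axin2 and Dkk3 in CPM in the 3 main clusters named alveolar fibroblast (cluster 8 on few markers), 1 point a library. Dkk3 in the libraries labelled p16-DTR lies above all control libraries in each cluster, and cluster 8 has the lowest mean of Wnt2 (48.7) and the highest of Dkk3 (199.5).

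The clusters also differed in level, and cluster 8 had the weakest marker support for the class name. Wnt2 had a mean of 225 in cluster 2, 158 in cluster 1 and 48.7 in cluster 8. Dkk3 had the opposite order, at 90.9, 112 and 199.5, as did Sfrp1, at 7.75, 42.6 and 161. The summed level of the 7 alveolar fibroblast markers in the class was 14852, 12038 and 13039 against 14394, 15046 and 13973 CPM, which overlapped, with 6 of 7 markers lower and none at 0. That of 6 markers of peribronchial fibroblasts, a class with more Dkk3, was 144, 161 and 148 against 137, 126 and 124, with 4 markers higher, 2 lower and none at 0, and that of pericytes was 33.5, 38.7 and 47.8 against 36.6, 36.6 and 30.3, which overlapped. Of the lists at lower levels, venous endothelial markers (13.1, 13.7 and 14.2 against 9.64, 11.1 and 11.4, 5 of 7 higher, 1 called), general capillary markers (14.01, 12.99 and 12.4 against 9.46, 11.7 and 11.3, 4 of 6 higher) and nonclassical monocyte markers (16.9, 20.03 and 19.4 against 15.5, 16.1 and 14.8, 3 of 6 higher) had higher sums without overlap. Interstitial macrophage markers (15.1, 16.9 and 14.7 against 30.9, 20.1 and 25.4, 2 of 6 lower) and B cell markers (5.00, 6.05 and 5.05 against 8.41, 6.94 and 9.19, 6 of 7 lower, 1 called) had lower ones. Ciliated and mast cell sums were also lower and plasma cell and basophil sums higher without overlap, each at a low level. The part of other cells in these results was not tested.

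In peribronchial fibroblasts the R-spondin receptors Lgr5 and Lgr6 fell and Fzd1 rose, 3 calls among 24 members tested, where the percent called over all genes was 2.62. Lgr5 (ENSMUSG00000020140, GRCm38 chromosome 10, 115450311 to 115587780, minus strand) was at 570.1, 561 and 482 against 1066, 815 and 741 CPM, or 538 ± 48.4 against 874 ± 170.4 (SD, n = 3; -0.67 ± 0.13, adjusted p = 0.0326). Lgr6 (ENSMUSG00000042793, GRCm38 chromosome 1, 134983301 to 135105276, minus strand) was at 135, 116 and 115 against 161, 190.3 and 167, or 122 ± 11.0 against 173 ± 15.5 (-0.46 ± 0.11, adjusted p = 0.0484). Fzd1 (ENSMUSG00000044674, GRCm38 chromosome 5, 4753839 to 4758035, minus strand) was at 52.8, 48.0 and 58.9 against 31.1, 31.3 and 40.1, or 53.3 ± 5.45 against 34.2 ± 5.15 (0.67 ± 0.15, adjusted p = 0.0458). The groups did not overlap in any of the 3.

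Leaving out 1 library ended most of these calls. The adjusted p of Lgr5 was 0.101 without control replicate 1, 0.0697 without control replicate 2, 0.0940 without p16-DTR replicate 2, and it was 0.137 when p16-DTR replicate 3 was left out. Lgr6 kept its call without p16-DTR replicate 1 alone and had an adjusted p of 0.0861 to 0.175 without each of the other 5 libraries. Fzd1 kept its call without control replicate 3 alone, with 0.0574 to 0.172 for the other 5. With each cell gated on its own markers in place of clusters, the log2 fold change of Lgr5 was -0.71 (adjusted p = 0.131), that of Lgr6 -0.43 (adjusted p = 0.317) and that of Fzd1 0.46 (adjusted p = 0.144). Keeping predicted doublets ended the calls of Fzd1 (adjusted p = 0.0554) and Lgr6 (adjusted p = 0.0568), and the stricter cell filter that of Lgr6 (adjusted p = 0.0557). The class held at least 115 cells in a library and was a single cluster of 1033 cells.

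The summed level of the 6 peribronchial fibroblast markers in the class was also lower, at 10987, 11321 and 11315 against 12633, 11905 and 11499 CPM, with 4 of 6 markers lower and none at 0. Adventitial fibroblast markers were at 387, 351 and 361 against 545, 455 and 437, with 6 of 7 lower, and arterial endothelial markers at 277, 260.1 and 184 against 594, 386 and 507, with 4 of 7 lower, again with none at 0. Control replicate 3 had 14757 CPM of secretory airway markers in the class, where the other libraries had at most 47.1. The part of these markers in the result was not tested. Axin2 was at 42.7, 37.6 and 36.3 against 62.2, 48.0 and 51.7 (-0.44 ± 0.14, adjusted p = 0.110). In all, 9 members were lower and 2 higher without overlap, where 14% and 10.3% of all genes of the class were. Wnt5a, the main ligand of the class, was at 238, 236 and 208 against 209, 204 and 173.

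Both Lgr genes also lay lower without overlap in their next class, where neither passed and where 10.2% of all genes of adventitial fibroblasts and 5.99% of those of smooth muscle lay so. Lgr5 was at 20.7, 20.2 and 14.3 against 39.7, 27.4 and 30.3 in adventitial fibroblasts (adjusted p = 0.136), and Lgr6 at 42.9, 28.7 and 28.2 against 113, 53.5 and 89.2 in smooth muscle (adjusted p = 0.498).

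In venous endothelial cells Sfrp1 and Wnt2 fell, both from a low level, 2 calls among 18 members tested, where the percent called over all genes was 5.02. Sfrp1 (ENSMUSG00000031548, GRCm38 chromosome 8, 23411502 to 23449632, plus strand) was at 0.176, 0.661 and 0.297 against 2.57, 2.33 and 3.27 CPM (-2.82 ± 0.43, adjusted p = 0.0106), from 12 against 87 UMIs. Wnt2 (ENSMUSG00000010797, GRCm38 chromosome 6, 17988940 to 18030585, minus strand) was at 0.881, 0.378 and 1.09 against 1.87, 3.49 and 2.96 (-1.81 ± 0.41, adjusted p = 0.0388), from 25 against 88 UMIs. B cells, which are not a known source of either, had means of 0.380 and 0.444 CPM. Sfrp1 kept its call without each of the 6 libraries in turn. With each cell gated on its own markers in place of clusters, Sfrp1 had a log2 fold change of -1.21 and an adjusted p of 0.205. Wnt2 lost its call without each library in turn, at an adjusted p of 0.0503 to 0.107.

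Most control UMIs of Sfrp1 in the class came from a small cluster, with 63 cells in control libraries (17 to 25 a library) and 22 in libraries labelled p16-DTR (3 to 12). It held 65 of the 87 control UMIs of Sfrp1 and 48 of the 88 of Wnt2, and 2 and 12 UMIs on the side labelled p16-DTR. Pooled over the libraries of a group, Sfrp1 in this cluster was at 4.31 against 48.3 CPM and Wnt2 at 25.8 against 35.7 (p16-DTR label against control). The share of this cluster in venous cells was lower without overlap. In the main venous cluster, Sfrp1 was at 0.177, 0.575 and 0.203 against 1.11, 0.221 and 0.868 CPM and Wnt2 at 0.797, 0.192 and 0.203 against 0.738, 2.21 and 1.10, and the groups overlapped in both genes. Adventitial fibroblast markers, from the class that leads Sfrp1, were at 45.8, 34.9 and 35.0 against 43.4, 47.6 and 50.6 in venous cells, and alveolar fibroblast markers, from the class that leads Wnt2, at 375, 256 and 297 against 372, 430.2 and 384. Both sums overlapped, 6 of 7 markers were lower in each list and none was at 0. Their part in the result was not tested.

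Axin2 passed the threshold in no class. Among classes with a mean of at least 5 CPM, besides alveolar and peribronchial fibroblasts, it was lower without overlap in pericytes, at 57.0, 88.5 and 52.4 against 97.7, 92.8 and 105 (adjusted p = 0.355), in adventitial fibroblasts, at 31.4, 28.6 and 27.0 against 35.8, 35.1 and 35.7 (adjusted p = 0.172), and in alveolar type 2 cells, at 11.8, 9.99 and 11.6 against 17.3, 13.5 and 13.7 (adjusted p = 0.412). CD4 T cells were higher without overlap, at 39.6, 41.6 and 40.8 against 32.7, 36.2 and 35.1 (adjusted p = 0.263). Below 5 CPM, interstitial macrophages lay lower and alveolar macrophages higher without overlap, in classes with too few cells to test. The share of all genes of the class that lay lower without overlap was 7.65% in pericytes, 10.2% in adventitial fibroblasts and 13.8% in alveolar type 2 cells, and 10.6% of the genes of CD4 T cells lay higher.

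The clusters that made up 2 of these classes differed between the groups. Of the CD4 T cells, a cluster led by Il17f and Il17a made up 6.01%, 5.20% and 2.51% against 23.8%, 33.2% and 23.1%, and one led by Atp8a2 and Il12rb2 6.97%, 17.7% and 13.02% against 3.19%, 2.21% and 6.56%, both without overlap. The cluster led by Atp8a2 had 5 CD4 T cell markers, none of them among its leading genes, and natural killer as its second class. Its name is therefore less firmly founded. In the 2 largest CD4 T clusters Axin2 was at 37.9, 35.0 and 39.5 against 30.5, 41.0 and 29.5 and at 40.9, 51.1 and 52.7 against 43.3, 37.0 and 49.3, and the groups overlapped in both. The larger of the 2 adventitial clusters made up 75.0%, 78.0% and 75.5% against 79.3%, 78.3% and 78.5%, without overlap. Axin2 was lower without overlap in each of them, at 20.9, 20.2 and 16.4 against 24.8, 22.2 and 27.0 in the larger and 66.4, 65.2 and 62.9 against 83.4, 91.4 and 70.8 in the smaller. Both clusters are parts of the cells that gave the class values, so they are not independent support for them. No share of all genes is given for a single cluster.

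**Figure D5:**
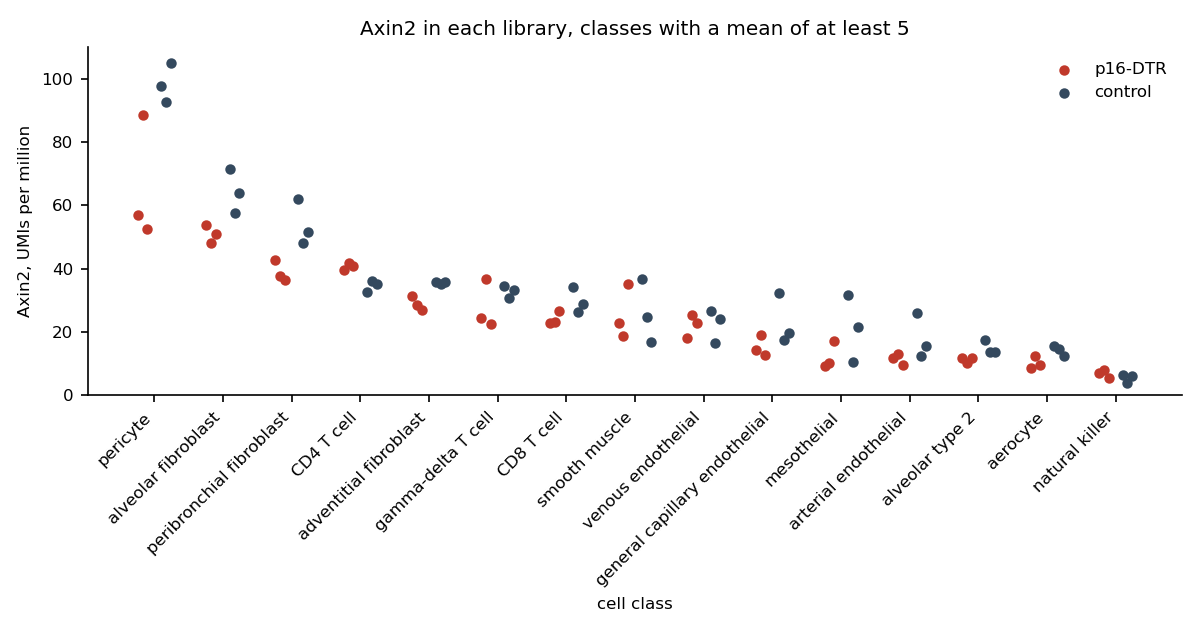
Axin2 in CPM in each library, for 15 of the 16 classes with a mean of at least 5 (the platelet or megakaryocyte class is left out), ordered by mean. Libraries labelled p16-DTR lie below control libraries in pericytes, in the 3 fibroblast classes and in alveolar type 2 cells, and above them in CD4 T cells.

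Some members lay apart between the groups in a class without passing the test. In the classes named next, 5.86% to 10.7% of all genes lay higher without overlap where a member is given as higher, and 9.69% to 15.4% lay lower where one is given as lower, so such members are described and not called. Dkk3 was higher without overlap in adventitial fibroblasts, at 206, 207 and 186 against 141, 178 and 149.8 (adjusted p = 0.173), and in smooth muscle, at 136, 144 and 149 against 111, 96.1 and 98.0 (adjusted p = 0.579). In aerocytes, at a low level, it lay lower, at 2.76, 1.54 and 1.90 against 3.92, 7.41 and 3.58 (adjusted p = 0.115). Lrp5 was higher without overlap in general capillary cells, at 157, 157 and 166 against 117, 131 and 149 (adjusted p = 0.0927), in venous cells, at 190.2, 168 and 171 against 118, 159 and 141 (adjusted p = 0.0968), and in arterial cells, at 120.1, 113 and 119 against 94.6, 105 and 98.3 (adjusted p = 0.124). It also lay higher without overlap in adventitial fibroblasts, CD4 T cells and natural killer cells. Fzd4 lay higher and Fzd6 lower without overlap in both venous and arterial cells. Rspo3 of aerocytes was lower, at 60.1, 82.1 and 59.1 against 93.1, 107 and 85.2 (adjusted p = 0.130), as was Wnt3a of alveolar type 1 cells, at 55.6, 77.4 and 76.0 against 103, 84.5 and 99.3 (adjusted p = 0.597). The low-count cluster of alveolar type 1 cells made up 79.0%, 74.2% and 76.1% against 72.3%, 68.0% and 62.7% of that class, without overlap, and its part in the Wnt3a values was not tested. The smaller of the 2 arterial clusters likewise had a share that differed without overlap, at 28.2%, 29.1% and 18.6% against 37.6%, 31.3% and 40.8%.

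Sequence before the transcription start is shown for Axin2 and for the called genes found in the RefSeq promoter table (GRCm38.p6), to give the context of the genes whose levels are compared. The table held 31 of the 48 members, with 34 start sites, and not Lgr5, Dkk3 or Sfrp1. Wnt5b has 3 starts there, of which the one at the gene boundary given above and the inner one whose window holds the motif are shown. Each run is the 250 bases upstream of a RefSeq start, 5' to 3' on the strand of the gene. Capitals mark the TCF/LEF core CTTTGA or its reverse complement TCAAAG, searched on both strands. RefSeq starts can differ from the gene intervals given above. The Wnt2 run lies partly inside its interval, which ends at 18030585. The Fzd1 start lies beyond its interval, which ends at 4758035. The runs are Wnt5b at chr6:119544348-119544597 (gene boundary) and chr6:119449387-119449636 (inner start), Fzd1 at chr5:4758217-4758466, Lgr6 at chr1:135105277-135105526 and Wnt2 at chr6:18030446-18030695, all on the minus strand, and Axin2 at chr11:108920099-108920348 on the plus strand.
Wnt5b (gene boundary): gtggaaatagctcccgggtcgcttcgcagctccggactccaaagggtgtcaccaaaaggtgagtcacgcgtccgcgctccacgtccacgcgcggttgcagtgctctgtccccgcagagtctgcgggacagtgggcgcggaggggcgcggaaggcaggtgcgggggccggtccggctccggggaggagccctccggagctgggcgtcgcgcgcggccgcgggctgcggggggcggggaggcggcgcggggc
Wnt5b (inner start): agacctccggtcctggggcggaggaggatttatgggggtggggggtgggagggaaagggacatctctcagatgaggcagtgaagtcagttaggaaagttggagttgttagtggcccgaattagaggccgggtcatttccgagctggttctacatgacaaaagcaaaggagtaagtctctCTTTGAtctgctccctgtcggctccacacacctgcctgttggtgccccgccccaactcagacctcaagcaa
Fzd1: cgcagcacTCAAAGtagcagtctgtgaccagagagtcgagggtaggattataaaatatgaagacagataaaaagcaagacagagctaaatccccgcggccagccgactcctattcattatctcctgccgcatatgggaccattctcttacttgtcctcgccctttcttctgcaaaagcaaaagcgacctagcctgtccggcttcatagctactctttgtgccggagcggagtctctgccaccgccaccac
Lgr6: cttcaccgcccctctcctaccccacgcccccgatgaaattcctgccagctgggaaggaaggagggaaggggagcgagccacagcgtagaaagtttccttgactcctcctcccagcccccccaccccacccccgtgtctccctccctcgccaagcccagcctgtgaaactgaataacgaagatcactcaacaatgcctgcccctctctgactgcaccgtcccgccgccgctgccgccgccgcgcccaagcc
Wnt2: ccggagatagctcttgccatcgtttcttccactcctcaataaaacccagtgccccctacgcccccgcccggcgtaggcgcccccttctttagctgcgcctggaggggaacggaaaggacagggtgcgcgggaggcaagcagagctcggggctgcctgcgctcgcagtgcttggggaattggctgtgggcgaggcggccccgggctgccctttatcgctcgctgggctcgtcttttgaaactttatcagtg
Axin2: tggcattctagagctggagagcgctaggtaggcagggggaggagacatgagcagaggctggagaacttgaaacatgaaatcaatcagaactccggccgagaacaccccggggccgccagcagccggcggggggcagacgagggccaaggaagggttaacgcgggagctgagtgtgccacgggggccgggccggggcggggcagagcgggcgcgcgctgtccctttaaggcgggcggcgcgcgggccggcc
The core begins 71 bases before the inner start of Wnt5b and 242 bases before the RefSeq start of Fzd1. These letters are not in the other 4 runs, nor in the window of the remaining Wnt5b start (chr6:119467212-119467461). They were found in 4 of the 34 member windows (11.8%) and in 4544 of the 32851 windows of all genes (13.8%). A match is a description and not a site.

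The other genes of the pathway, a list of 57 with intracellular components, regulators and targets, gave 0 calls over all retained cells and 8 calls in 794 tests over the 21 classes, 7 higher and 1 lower (1.01%, against 0.71% of the tests of all genes). By class, 3 of 42 listed genes tested were called in venous, 1 of 43 in arterial and 1 of 47 in general capillary cells. The percent called over all genes was 5.02, 0.137 and 1.77 in these classes. That percent was 2.62 in peribronchial fibroblasts (1 of 43 listed genes called), 1.1 in aerocytes (1 of 38) and 0.723 in natural killer cells (1 of 27). Nkd1, a feedback inhibitor that binds Dishevelled, rose in 3 endothelial classes. It was at 252, 269 and 240.1 against 187, 182 and 195 in venous cells (0.45 ± 0.07, adjusted p = 0.0106), at 142, 124 and 134 against 87.4, 94.7 and 88.8 in arterial cells (0.59 ± 0.08, adjusted p = 0.0420) and at 289, 278 and 272 against 223, 219.5 and 245 in general capillary cells (0.33 ± 0.06, adjusted p = 0.0445). The groups did not overlap in any of the 3. Markers of general capillary cells, where Nkd1 is higher, were at 4184, 3621 and 3772 against 2978, 3116 and 3368 CPM in venous cells, with 4 of 6 markers higher, 2 of them called, and none at 0. They were at 4230, 3661 and 3768 against 2993, 3437 and 2956 in arterial cells, where Nkd1 had a mean of 112 against 254 in general capillary cells, again with 4 of 6 markers higher and none at 0. Both sums were higher without overlap. In general capillary cells their own markers were at 4758, 4387 and 4324 against 4155, 4245 and 4145 and arterial markers at 1824, 1784 and 2028 against 1615, 1750 and 1742, with 4 of 6 and 5 of 7 higher, both sums higher without overlap. Alveolar fibroblast markers there were at 160.3, 126 and 129.8 against 191, 183 and 172 and adventitial fibroblast markers at 236, 208 and 197 against 276, 254 and 237, with 7 of 7 lower in each list, none at 0 and both sums lower without overlap. Nonclassical monocyte markers, at 786, 786 and 826 against 661, 629 and 634 in venous, 1764, 1780 and 1970 against 1571, 1692 and 1474 in arterial and 1145, 1129 and 1279 against 1029, 1049 and 991 in general capillary cells, were higher without overlap in all 3. The part of these markers in the results was not tested, nor was that of the arterial cluster shares, which differed without overlap as given above. The venous call was kept without each of the 6 libraries in turn. The general capillary call was lost each time (0.0571 to 0.127), and the arterial call each time but without control replicate 2 (0.0702 to 0.196). A coarser clustering ended the arterial call (adjusted p = 0.188), and scaling by library size alone the general capillary one (adjusted p = 0.0503).

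In venous cells Tle1, a transcriptional co-repressor, also rose, at 205, 186 and 195 against 144, 164 and 132 (adjusted p = 0.0278), as did Bcl9l, a beta-catenin cofactor, at 66.2, 70.0 and 81.2 against 49.7, 50.9 and 57.0 (adjusted p = 0.0244). Tcf7l2, a TCF factor through which beta-catenin acts, rose in peribronchial fibroblasts, at 512, 690.0 and 633 against 235, 312 and 346 (1.07 ± 0.16, adjusted p = 0.0134). Ccnd1, which encodes cyclin D1, rose in aerocytes, at 343, 429 and 410.3 against 302, 279 and 301 (adjusted p = 0.0287). In aerocytes the arterial endothelial markers were at 364, 342 and 347 against 311, 288 and 282 CPM, with 4 of 7 higher and 1 called, and the nonclassical monocyte markers at 1058, 1139 and 1157 against 883, 854 and 912, with 5 of 6 higher and 1 called. Both sums were higher without overlap, none of their markers was at 0, and their part in the result was not tested. Reck, a membrane protein and co-receptor for some Wnt ligands, fell in natural killer cells, at 13.6, 11.2 and 12.0 against 32.2, 26.8 and 26.5 (-1.21 ± 0.19, adjusted p = 0.0162). The 7 natural killer markers themselves were at 13985, 12244 and 13206 against 12095, 11167 and 10439 and the nonclassical monocyte markers at 381, 374 and 401 against 325, 347 and 314 in that class, both higher without overlap, with 5 of 7 and 5 of 6 higher and none at 0, and their part was not tested. With each cell gated on its own markers, Tcf7l2 had a log2 fold change of 0.77 (adjusted p = 0.0997). Without p16-DTR replicate 2 or 3, it had an adjusted p of 0.0523 and 0.0634. The adjusted p where a call was lost was 0.0514 to 0.0883 for Tle1 (all libraries but control replicate 2), 0.0534 to 0.0786 for Bcl9l (without control replicates 1 and 2 and p16-DTR replicates 2 and 3), 0.0537 to 0.103 for Ccnd1 (all libraries but p16-DTR replicate 1) and 0.0660 to 0.0892 for Reck (without control replicates 1 and 3 and p16-DTR replicate 3).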

How the data were processed

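The 6 libraries of mouse lung cells (3 labelled p16-DTR, 3 control) were analysed from the deposited 10x count matrices. The authors made the UMI counts with Cell Ranger 8.0.1 on mm10, per the submitters' processing notes; chemistry was GEM-X, per the labels. Counts were used as deposited. The members, gene lists and tests were chosen with earlier results of these data known.

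Cells with at least 300 genes, 500 UMIs and at most 15% mitochondrial UMIs were kept, and predicted doublets were left out (0.4% of barcodes per 1000 barcodes, scored against 2 simulated doublets a cell). Clustering used 2000 variable genes, 40 components, 15 neighbours and Leiden resolution 1.5 (leidenalg 0.10.2, scikit-learn 1.9.0, Python 3.11.15), with the members left out. Clusters were named from at least 3 marker genes, so names are rebuilt here; a gate on each cell's own markers gave the same class for 77.9% of cells. UMIs were summed per library and class and tested with edgeR 4.0.16 in R 4.3.3 (filterByExpr, TMM, quasi-likelihood test, Benjamini-Hochberg over all genes in a fit, called at 0.05). The SE of an edgeR log2 fold change was derived as its absolute value over the square root of the F statistic of that test. DESeq2 1.42.0 was an alternative. The test script was tested on simulated data. Retained cells had a median of 16647 to 17934 UMIs; fold changes of genes with few UMIs are imprecise.

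Values in every library were given for Axin2, for the 3 most abundant members of each role, for members called anywhere and for members whose groups did not overlap over all cells. The highest and the next class were given for members with a mean of 5 CPM in some class. The other pathway genes named were those called in a class. Replicates differed by far more than counting noise (chi-square per degree of freedom 81.3 to 316). The fixed-makeup values, the low-UMI cluster alternative and the alternatives for the count of members without overlap were chosen after the values were seen.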

Additional observations from a re-analysis of the deposited data

Results flagged for a closer look

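Fzd1 differed in opposite directions in peribronchial fibroblasts and pericytes, with all 3 libraries labelled p16-DTR on one side of all 3 control libraries in both classes. In pericytes libraries labelled p16-DTR had a mean of 96.1 CPM and control libraries 126, a log2 fold change of -0.38 that did not pass (edgeR adjusted p = 0.476), and 7.65% of all genes of that class lay lower without overlap. In peribronchial fibroblasts the log2 fold change was 0.67, a call that was lost without 5 of the 6 libraries in turn and with each cell gated on its own (adjusted p = 0.144), and 10.3% of all genes lay higher without overlap. The difference between the classes was not tested.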

How the results depend on the processing

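Over all retained cells, edgeR called 0 members in each fit that left out 1 library (lowest 0, highest 0), and DESeq2 called 8 (20% of the members and 12.6% of all genes with an adjusted p). The 20 members lower without overlap became 17 at fixed class makeup and 21 to 26 when 1 library was left out, where 19.6% and 25.5% to 29.8% of all genes tested were lower without overlap, against 22.1% with all libraries. Leaving out a library can only keep or raise a count of genes without overlap, so the 21 to 26 are no check of the 20. Member calls within classes (7) became 20 of 247 tests with DESeq2, 21 of 778 without the filter on low counts, 4 of 438 with each cell gated on its own and 3 of 315 with adjustment over all classes together. The shares of all genes called in these fits were 2.87%, 2.04%, 0.54% and 0.25%, against 0.71% in the fit reported. Member calls ranged from 1 to 5 when 1 library was left out, where 0.133% to 0.671% of all genes were called. Pathway list calls (8 of 794 tests, 1.01%) became 29 of 667 with DESeq2 (4.35%), 40 of 1139 without the filter (3.51%) and 4 of 794 with adjustment over all classes together. They ranged from 1 to 7 when 1 library was left out. The shares of all genes called in these fits are those given above for the members. No call changed direction under any alternative run. Gating each cell on its own ended the calls of Fzd1, Lgr5, Lgr6, Sfrp1 (adjusted p = 0.205) and Tcf7l2 (0.0997). Keeping predicted doublets ended those of Fzd1 (0.0554) and Lgr6 (0.0568), the stricter cell filter that of Lgr6 (0.0557), Leiden resolution 0.8 that of arterial Nkd1 (0.188) and library size alone that of general capillary Nkd1 (0.0503). DESeq2 gave Reck no adjusted p. Of 82 mean levels, 25 moved by more than the spread between libraries under the per-cell gate and 5 with doublets kept. Same-numbered libraries had correlations of 0.302, -0.0195 and 0.294 between their deviations from the group means, so the numbers were not taken to pair them; with the replicate block, which called 0.611% of all genes over the classes, there were 8 member calls of 315 tests (5 shared with the 7) and 10 pathway list calls of 794 (4 shared with the 8), the calls not shared being Wnt5b in alveolar fibroblasts (adjusted p = 0.0503), venous Wnt2 (0.100), Ccnd1 (0.0580), arterial Nkd1 (0.112), general capillary Nkd1 (0.109) and Tle1 (0.0656), and 0 members were called over all cells. Depth limits the genes with few UMIs, among them Sfrp1 and Wnt2 in venous cells.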
